A study of Mus musculus with 2 samples.

Results

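Mir499, Mir208b and Mir208a are the microRNA genes that lie in introns of the myosin heavy chain genes Myh7b, Myh7 and Myh6. They were followed here in gastrocnemius, a large muscle of the calf, from B6CASTF1/J females aged 2 months. The 3 genes were found by their Ensembl identifiers in the GENCODE mouse M21 annotation, among 2202 microRNA genes in the deposited tables. The assay was microRNA sequencing, and the values are raw counts of reads on a gene's own strand. The series has 1 group, for which the labels name no treatment and no engineered allele, with 2 libraries labelled biological replicates 2 and 1. B6CASTF1/J mice are hybrids of the laboratory strain C57BL/6J with the wild-derived strain CAST/EiJ. The labels number the females separately but give them 1 donor code. Whether the 2 libraries come from separate animals is therefore not settled, and the spread between the libraries may hold a technical part. No second condition was given, and every comparison between samples below sets replicate 2 against replicate 1.

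A myosin heavy chain is the motor protein of the muscle filament, and striated muscles differ in which one they make. Myh6 encodes the alpha chain of heart muscle, Myh7 the beta chain shared by heart and slow-twitch fibres, and Myh7b a related chain of slow and extraocular muscle. The microRNA in each gene is cut from the intron after transcription and loaded into Argonaute, which uses the seed, the bases near the 5′ end, to find messenger RNAs. In mice, Mir208a is known from the heart, while Mir208b and Mir499 are known to accompany the slow fibre program and to repress its repressors, among them Sox6. The gastrocnemius of the mouse is mainly a fast muscle with slow fibres in its deep part.

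The 3 genes form a seed group, and the mature strands that carry the shared seed are shown because the counts of the 3 genes are summed below. The sequences are from RefSeq on GRCm38.p6, where all 3 genes matched, with the seed in capitals:
mmu-miR-499-5p: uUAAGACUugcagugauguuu
mmu-miR-208b-3p: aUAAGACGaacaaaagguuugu
mmu-miR-208a-3p: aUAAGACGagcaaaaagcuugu
Bases 2 to 7 were the same in the 3 strands and in no other of the 1738 mature entries of the RefSeq table. Over bases 2 to 8, miR-208a-3p and miR-208b-3p shared 1 seed, which no other entry had, and the seed of miR-499-5p was its own. Counted from the 5′ end of miR-208a-3p, miR-208b-3p differed from it by G10A, A16G and C18U, so 19 of 22 bases were identical. Set against miR-208b-3p without gaps, miR-499-5p had 10 of 21 bases in common.

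The hairpins from which they are cut are given with both mature strands in capitals, 5′ to 3′:
Mir499: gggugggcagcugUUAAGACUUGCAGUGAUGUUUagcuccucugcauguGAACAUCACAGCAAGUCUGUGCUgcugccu
Mir208b: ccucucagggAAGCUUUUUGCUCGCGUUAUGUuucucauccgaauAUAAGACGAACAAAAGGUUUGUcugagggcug
Mir208a: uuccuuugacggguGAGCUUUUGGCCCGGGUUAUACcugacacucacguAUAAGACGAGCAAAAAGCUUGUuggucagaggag
The deposited counts are per gene, so reads of the 5p and the 3p strand cannot be told apart. The seed strand lies on the 5p arm in Mir499 and on the 3p arm in Mir208b and Mir208a. Reads that align to several places are counted in no gene, so shared sequence would lower a count. The longest stretch that Mir208a and Mir208b had in common was 14 bases, with 1 of them read on the opposite strand, and on the same strand it was 10. For Mir499 the longest stretch shared with any other hairpin of the table, which has 1005, was 12 bases, with Mir1968 and Mir8096. Sequence outside microRNA hairpins was not searched.

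In the mm10 assembly, Mir499 (ENSMUSG00000076312.1) is at chr2:155622880-155622958 on the plus strand, in intron 19 of the 41 introns of Myh7b. That intron is 481 bases long, and the hairpin starts 158 bases after the exon before it. Mir208b (ENSMUSG00000077928.1) is at chr14:54975700-54975776 on the minus strand, in intron 31 of 40 in Myh7, an intron of 461 bases. Mir208a (ENSMUSG00000065432.1) is at chr14:54949060-54949142 on the minus strand, in intron 29 of 38 in Myh6, an intron of 542 bases. Each hairpin has the strand of its host and overlapped no exon of the host transcript. Myh6 and Myh7 lie in tandem with 4042 bases between them, and 26557 bases separate Mir208a from Mir208b. No other microRNA gene within 1 Mb of a member had more than 1 count in a library. In that window Mir6948 had 1 count in replicate 2 and 1 in replicate 1, and Mir686, Mir695, Gm22758 and Gm22759 had none.

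**Figure D1:**
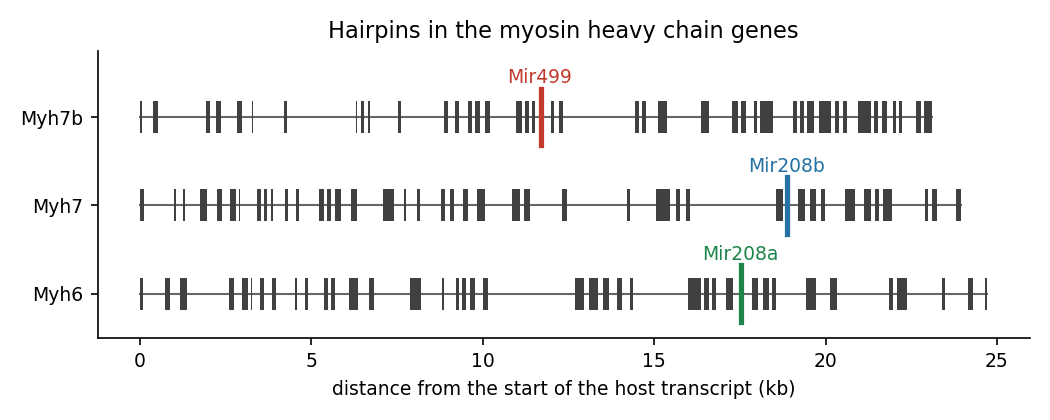
Exons (dark boxes) of the host transcripts Myh7b, Myh7 and Myh6 are drawn against the distance from the transcript start in kb, with the hairpin as a coloured bar. Mir499 lies 11668 bases from the start of Myh7b, while Mir208b and Mir208a lie 18850 and 17499 bases into Myh7 and Myh6.

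Replicate 2 had 14377558 listed reads and replicate 1 had 9410562, and 2291821 and 1950204 of them were own-strand counts of microRNA genes. Levels are given as CPM, a gene's counts scaled to a common total of own-strand counts. A single count was worth 0.436 CPM in replicate 2 and 0.513 CPM in replicate 1, and the floor of 3 counts stood at 1.31 and 1.54 CPM. Several alignments were found for 72.3% and 70.1% of the listed reads. As a check of the labelled tissue, Mir206, a microRNA of skeletal muscle, had 96104 counts in replicate 2 and 52086 in replicate 1. All intervals given below are exact 95% intervals for the counting error alone, because reads multiplied by PCR do not each stand for a molecule.

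Mir499 was the most abundant of the 3 genes. It had 5722 counts in replicate 2 and 615 counts in replicate 1. These are 2497 CPM (Poisson interval 2432 to 2562) and 315 CPM (291 to 341), a mean of 1406 ± 1542 CPM (SD, n = 2). The library intervals are far apart, and the SD is larger than the mean. Mir499 stood at rank 37 of the 2202 genes in replicate 2 and at rank 102 in replicate 1.

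Mir208b, from the intron of the slow myosin gene, came next. It had 1745 counts in replicate 2 and 238 in replicate 1, which are 761 CPM (726 to 798) and 122 CPM (107 to 139). Its mean was 442 ± 452 CPM (SD, n = 2), and its rank was 66 in replicate 2 and 139 in replicate 1. Again replicate 2 was high and replicate 1 low, with no overlap of the intervals.

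Mir208a, the heart-type member, was the lowest and close to the limit of detection in 1 library. It had 50 counts in replicate 2 and 4 counts in replicate 1. These are 21.8 CPM (16.2 to 28.8) and 2.05 CPM (0.559 to 5.25), a mean of 11.9 ± 13.98 CPM (SD, n = 2). Its rank was 220 in replicate 2 and 336 in replicate 1. None of the 3 genes had a read on the opposite strand in either library, and counting reads of either strand gave the same numbers.

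**Figure D2:**
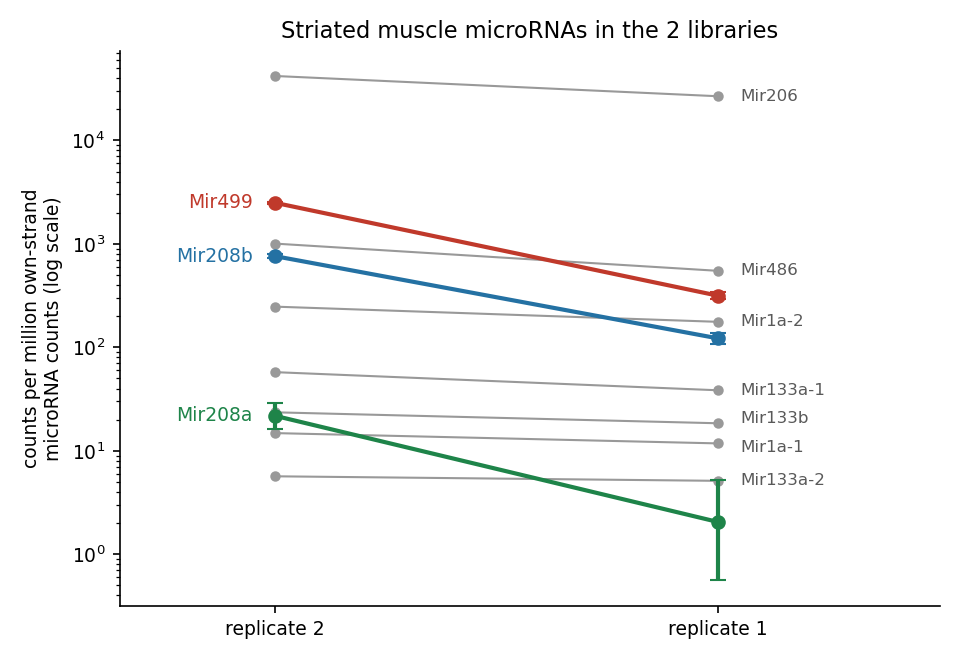
CPM of the 3 genes (coloured, with exact Poisson 95% intervals) and of the 7 other striated muscle genes (grey), on a log axis, with replicate 2 left and replicate 1 right. The coloured lines are the steepest, with Mir499 and Mir208b at 2497 and 761 CPM in replicate 2 and at 315 and 122 CPM in replicate 1, while the grey lines are less steep.

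The order Mir499, Mir208b, Mir208a held in both libraries. Mir499 had 3.28 times the counts of Mir208b in replicate 2 and 2.58 times in replicate 1 (two-sided exact binomial test of equal counts in replicate 1, Benjamini-Hochberg over 6 tests, adjusted p = 3.41e-39). Mir208b had 34.9 times the counts of Mir208a in replicate 2 and 59.5 times in replicate 1 (the same exact test, adjusted p = 4.81e-65 in replicate 1). In replicate 2 the p-values were below what the computation can represent. These tests cover counting error within a library and not differences in how well each sequence is captured.

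In the order of mean levels over all genes, each member's neighbours differed from it by less than the spread between libraries. The genes next to Mir499 were Mir196a-2 (mean 1464 CPM) and Mir93 (1427 CPM) above it and Mir214 (1401 CPM) and Mir16-1 (1338 CPM) below it. Their SDs were 73.5 to 328 CPM, against 1542 CPM for Mir499. Mir208b stood between Mir101a (461 CPM) and Mir382 (445 CPM) above and Mir223 (440.5 CPM) and Mir146 (404 CPM) below. Mir208a stood among Mir505, Mir20b, Mir1968 and Mir103-2, at means of 11.5 to 12.5 CPM. In all 12 cases the CPM ranges of member and neighbour overlapped. With members' ranges this wide, that overlap follows from choosing neighbours by mean level.

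The counts of replicate 2 were tested against those of replicate 1 over the 295 genes with at least 20 own-strand counts in both libraries together. This filter acts on the sum and kept all 3 members, but Mir208a, with 50 and 4 counts, passed it only through replicate 2, and it is not tested where 10 counts are required in each library. The call and the rank of Mir208a are therefore given as a description, and no weight is put on them. A gene was called where a two-sided exact binomial test, given library sizes scaled by edgeR's TMM method, had a Benjamini-Hochberg adjusted p under 0.05 and the ratio was at least 2-fold. Such a call compares these 2 libraries, not conditions. Of the tested genes, 8 were called higher in replicate 2 (2.71%), and all 3 members were among them. Another 34 were called lower (11.5%). The split was 5 higher and 62 lower with all listed reads as library size, and 4 higher and 92 lower with the other striated muscle genes as library size.

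The members had the 3 highest ratios of replicate 2 over replicate 1 among the 295 tested genes. For Mir208a the log2 ratio was 3.30 (SE 0.710 from counting error), a ratio of 11.0 with an interval of 4.03 to 41.8 (exact binomial test, adjusted p = 1.69e-09). For Mir499 it was 3.03 (SE 0.0612), a ratio of 8.17 with an interval of 7.51 to 8.89. For Mir208b it was 2.68 (SE 0.0996), a ratio of 6.44 with an interval of 5.62 to 7.40 (exact binomial test, adjusted p = 6.83e-241). The adjusted p of Mir499 was below what the computation can represent. The median log2 ratio over all tested genes was −0.05, and the highest of a gene that is no member was 1.75.

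The exact binomial test takes in counting error alone, and a second count model with a dispersion term was fitted as an alternative. Taking both libraries as 1 group, edgeR estimated a biological coefficient of variation of 0.37, which takes in the members' own difference. With 1 library on each side, no further replicate gives the spread between animals, so the p-values below do not show a difference beyond that spread. With that pooled dispersion, the edgeR exact test called 7 genes, of which 3 were higher in replicate 2 (1.02%), and these 3 were Mir499, Mir208a and Mir208b. The other 4 were lower (1.36%). The members' adjusted p-values in this edgeR exact test were 0.0199 for Mir499, 0.0466 for Mir208a and 0.0466 for Mir208b, the last 2 close to the threshold of 0.05.

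**Figure D3:**
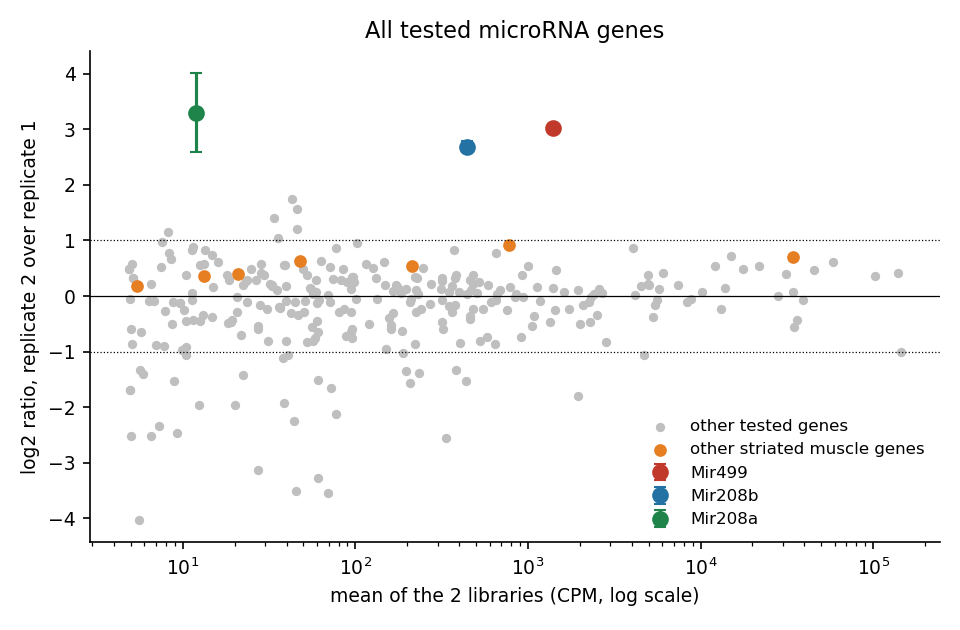
Log2 ratio of replicate 2 over replicate 1 (vertical) against mean CPM (horizontal, log scale) for the 295 tested genes, with 2-fold lines dotted and SEs (counting error) on the coloured points. The members lie at 3.30, 3.03 and 2.68, above every other tested gene, and the 7 other striated muscle genes lie between 0.17 and 0.92.

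The genes next in this pattern had clearly smaller ratios. Likeness was taken as the difference of log2 ratios over the 2 libraries, and the same 5 genes were nearest to Mir499 and to Mir208b. Nearest was Mir547, with 151 counts in replicate 2 and 39 in replicate 1, at a distance of 1.28 from Mir499 and 0.93 from Mir208b. Mir190b (157 and 46 counts), Mir201 (112 and 37), Mir6236 (146 and 55) and Mir450-2 (26 and 10) followed, at log2 ratios of 1.57, 1.40, 1.21 and 1.15. None of these 5 was called by the edgeR exact test with the estimated dispersion, and Mir450-2 was not called by the binomial test either (exact, adjusted p = 0.0516).

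The members did not keep exactly 1 ratio to each other. For every 100 counts of Mir499 there were 30.5 counts of Mir208b in replicate 2 (28.9 to 32.2), against 38.7 in replicate 1 (33.2 to 45.02). The ratio in replicate 2 was 0.788 times that in replicate 1 (interval 0.671 to 0.928; two-sided Fisher's exact test, adjusted over 3 pairs, p = 0.0117). Mir208b was thus higher in replicate 2 by a smaller factor than Mir499, a difference beyond counting error but not tested against the spread between animals.

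The few counts of Mir208a give its ratios wide intervals. Per 100 counts of Mir208b, Mir208a had 2.87 in replicate 2 (2.12 to 3.79), against 1.68 in replicate 1 (0.454 to 4.36). The change in this ratio was 1.70-fold with an interval of 0.617 to 6.56 (Fisher's exact test, adjusted p = 0.594). Against Mir499 it was 1.34-fold with an interval of 0.491 to 5.14 (Fisher's exact test, adjusted p = 0.816). Neither result shows that the ratios were equal, since a change of several fold lies inside each interval.

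**Figure D4:**
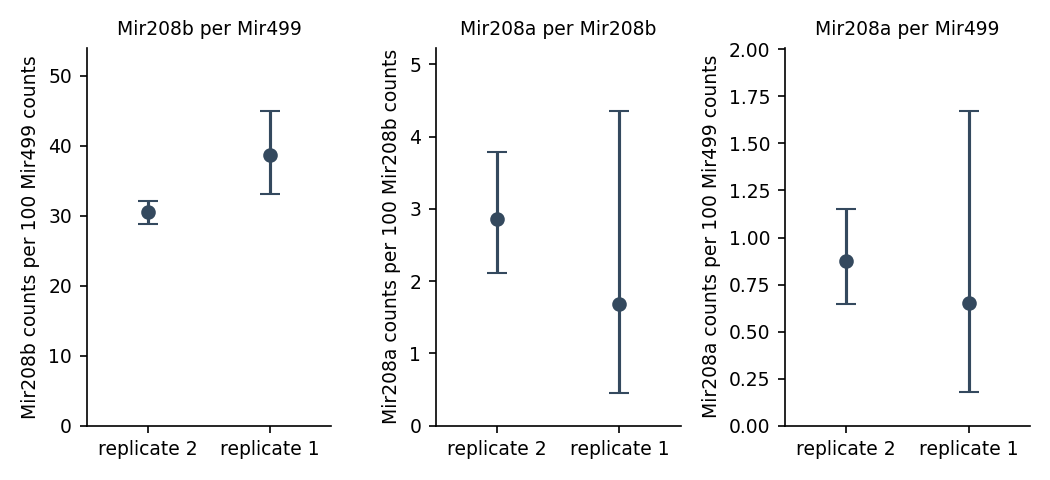
Counts of one member per 100 counts of another in replicate 2 (left) and replicate 1 (right) of each panel, with exact 95% intervals. Mir208b per 100 Mir499 is 30.5 in replicate 2 and 38.7 in replicate 1 with intervals that do not meet, while the intervals of the panels with Mir208a overlap.

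Summed over the shared seed bases, the 3 genes held 7517 counts in replicate 2 and 857 in replicate 1. That is 0.328% of own-strand counts (Clopper-Pearson interval 0.321 to 0.335) and 0.0439% (0.0411 to 0.04699), a mean of 0.186% ± 0.201 (SD, n = 2). Mir499 made up 76.1% of the sum in replicate 2 and 71.8% in replicate 1. Mir208b made up 23.2% and 27.8%, and Mir208a 0.665% and 0.467%. The share of the group in all own-strand counts was 7.46 times as large in replicate 2 as in replicate 1.

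The other microRNAs of striated muscle were set beside the members. The list has 11 names, of which 10 were found and passed the filter, and Mir486b had no match by name. The 3 members were called higher and the other 7 genes were not called. Over all 295 tested genes 2.71% were called higher and 11.5% lower, so the absence of calls among these 7 does not set the members apart. Mir206, which promotes muscle differentiation, had a log2 ratio of 0.70, and Mir486, in an intron of Ank1, had 0.92. Mir1a-2 and Mir1a-1 had 0.53 and 0.37, and Mir133a-1, Mir133b and Mir133a-2 had 0.62, 0.39 and 0.17. The median of these 7 was 0.53, beside −0.05 over all tested genes. Counts of the Mir1a, Mir133 and Mir486 genes leave out reads that aligned to more than 1 place.

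The difference in the members was larger than that in these muscle genes. The members held 7.04% of the list's counts in replicate 2 (interval 6.89 to 7.20), against 1.57% in replicate 1 (1.47 to 1.68). Mir206 held 96104 of the 99210 counts of the other 7 genes in replicate 2 and 52086 of 53644 in replicate 1. The share of the list and the sum of the other 7 genes are therefore mostly comparisons with Mir206. Per 1000 counts of Mir206 there were 59.5 of Mir499 in replicate 2 and 11.8 in replicate 1, and 18.2 and 4.57 of Mir208b. Mir208a had 0.520 and 0.0768 counts per 1000 of Mir206. With the summed counts of the other 7 muscle genes as library size, the log2 ratios were 2.33 for Mir499, 1.98 for Mir208b and 2.60 for Mir208a, and the 3 genes were still called by the exact binomial test. On that scale the median log2 ratio of all tested genes was −0.74.

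A list of other microRNAs that lie inside protein-coding genes or muscle transcripts held no called gene. Among all 295 tested genes 2.71% were called higher and 11.5% lower, so the lack of calls here does not set the members apart. Of 14 genes on it, 12 passed the filter, with a median log2 ratio of 0.53. Of these, 11 were above 0, beside 48.1% of all tested genes, and Mir103-2 was below, at −0.42. Mir486, Mir1a-2 and Mir133a-1 are also on the striated muscle list, so the 2 lists are not separate. The genes named next were chosen after their values were seen. Mir378a, in the mitochondrial coactivator gene Ppargc1b, had 0.37, and Mir30e and Mir30c-1, in the transcription factor gene Nfyc, had 0.54 and 0.58. Mir128-2, in Arpp21, had 0.96, just short of 2-fold. Mir107 and Mir140, in Pank1 and Wwp2, had 0.06 and 0.02. The ratios of the members and of this list were not compared by a test.

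Several markers of other cell types were called lower in replicate 2, beside 34 of all 295 tested genes (11.5%). Smooth muscle genes held 9.73% of counts in replicate 2 and 20.3% in replicate 1, led by Mir143 and Mir145a, with 2 of 2 tested genes called lower. Endothelial Mir126a held 15.7% and 12.1%, and Mir126b was at 0. Fibroblast genes, led by Mir21a and Mir214, held 3.18% and 4.35%, with 1 of 4, Mir199b, called lower at a log2 ratio of −1.66. Mir21a and Mir214 had −0.43 and 0.15. The satellite cell list held 0.610% and 0.556%, with 1 of 3, Mir31, called lower, while Mir195a and Mir497 had log2 ratios of 0.19 and 0.16. Leukocyte genes held 0.246% and 0.315%, with 2 of 4, Mir142 and Mir223, called lower. The name Mir146a on this list found no match. These shares and calls therefore leave out the gene named Mir146, whose level was 284 CPM in replicate 2 and 525 CPM in replicate 1. Mir150 and Mir155 had log2 ratios of 0.04 and 0.16. The red cell genes Mir451a and Mir144 held 0.046% and 0.0787%, with none of 2 called. Glial Mir338 made up most of 0.0862% and 0.308% and was called lower, with a log2 ratio of −1.80, and neuronal Mir137 was called lower in a list at 0.00148% and 0.00733%, where the other 6 genes, of Mir124a and Mir9, were at 0. The liver list held 0.0133% and 0.0193%, with Mir122 called lower at a log2 ratio of −3.27, while Mir192 and Mir194-2 had 0.64 and 0.56. No marker gene of these 9 lists was called higher in replicate 2, which is near the share of 2.71% over all tested genes. By the edgeR exact test with the estimated dispersion, Mir122 and Mir31 were also called lower (adjusted p = 0.0190 and 0.0369), and no other marker was called. In tissue, fewer cells of a type and less RNA per cell cannot be told apart, and the part of any of these cells in the members' difference was not tested.

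The promoters of the host genes are shown because the 3 microRNAs lie inside these genes. Each sequence is the 250 bases before a RefSeq start on GRCm38.p6, 5′ to 3′ on the gene's strand. Capitals mark the E-box CANNTG, the site of muscle basic helix-loop-helix factors, and the MCAT element CATTCC, the site of TEAD factors, both sought on either strand with overlaps allowed:
Myh7b, chr2:155610993-155611242, plus strand: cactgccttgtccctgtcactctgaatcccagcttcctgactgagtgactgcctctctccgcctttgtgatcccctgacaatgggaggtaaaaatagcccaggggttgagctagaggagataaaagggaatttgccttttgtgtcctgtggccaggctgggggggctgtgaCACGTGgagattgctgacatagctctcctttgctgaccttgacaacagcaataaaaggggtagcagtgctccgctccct
Myh7, chr14:54994627-54994876, minus strand: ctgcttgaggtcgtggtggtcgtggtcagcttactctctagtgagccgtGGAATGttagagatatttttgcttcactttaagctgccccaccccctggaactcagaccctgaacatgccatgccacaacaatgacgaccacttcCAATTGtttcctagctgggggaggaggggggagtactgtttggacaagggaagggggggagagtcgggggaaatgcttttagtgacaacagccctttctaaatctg
Myh6, chr14:54966608-54966857, minus strand: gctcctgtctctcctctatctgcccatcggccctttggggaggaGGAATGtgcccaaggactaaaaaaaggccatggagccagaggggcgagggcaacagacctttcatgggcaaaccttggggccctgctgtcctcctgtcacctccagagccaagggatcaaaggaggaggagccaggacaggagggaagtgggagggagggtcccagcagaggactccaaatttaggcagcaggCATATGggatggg
Each window holds 1 E-box, as do 66.2% of the 32851 promoters in the table at least once. The Myh7 and Myh6 windows hold 1 MCAT element each, on the opposite strand, at positions −201 and −206 from the start, and 12.6% of all promoters hold one. RefSeq gives Myh7 a second start 77 bases downstream, whose window holds 2 E-boxes and no MCAT element. The RefSeq starts of Myh7b and Myh6 lie inside the first GENCODE exon, so these windows hold the first bases of that exon. A match of letters is a description and not a bound site.

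Target sites for bases 2 to 8 of the 3 strands are shown to make the seed group concrete. Matches to the shared bases 2 to 7 alone are not listed. The data hold no messenger RNA, so nothing here measures repression. In mice, Sox6, Purb, Sp3 and Cbx1 are known as targets of Mir499 or Mir208b, and Med13 and Mstn of Mir208a. Sox6 is a repressor of slow fibre genes, Med13 a subunit of the Mediator complex, and Mstn myostatin, which limits muscle growth. Purb and Sp3 are transcription regulators of myosin genes. The longest GENCODE M21 3′ UTR of each gene was searched for AGTCTTA, the complement of miR-499-5p bases 2 to 8, and for CGTCTTA, that of the miR-208 strands. Sites are written as DNA on the messenger's strand with the match in capitals, named by gene and first base of the match in the UTR:
Sox6 at 276: tctctgcccatcgcCGTCTTAtgagt
Sox6 at 285: atcgccgtcttatgAGTCTTAcattt
Sox6 at 598: ttaactattttaaaAGTCTTAcagga
Sox6 at 620: aggagacactgcaaAGTCTTAgacaa
Med13 at 547: aaaatatatgtaatCGTCTTAattaa
Mstn at 711: tgattaaaaggtaaAGTCTTAtttcc
Purb at 1162: aataacagaactgaAGTCTTAattta
Sp3 at 823: aataaggtgtattgCGTCTTAgcaga
Sox6 held 3 matches to the Mir499 seed and 1 to the Mir208 seed, all in the first 631 of its 6046 bases. At least 3 matches to the Mir499 seed occur in 0.148% of the 20914 UTRs searched, and at least 1 in 9.44%. The median UTR is 956 bases long, and among the 818 UTRs within 25% of the length of the Sox6 UTR 0.978% hold at least 3 and 38.02% at least 1. Among UTRs near the length of those of Purb and Mstn, 47.2% and 11.8% hold at least 1. Mstn held no match to the Mir208 seed. A match to the Mir208 seed occurs in 1.53% of all UTRs, in 5.75% of those near the Sox6 length and in 3.91% of those near the Med13 length of 3953 bases. Cbx1 held neither match in a UTR of 1143 bases.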

How the data were processed

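Small RNA from 2 gastrocnemius libraries was analysed. Per the deposited notes, the tables use GENCODE M21 on mm10. The choice of aligner and counter is not given in the sources used here. Raw counts per gene were deposited by the authors, and those on the gene's own strand were used, as judged from the values. The 4 rows that name no gene were left out.

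CPM are over all own-strand gene counts. Tests used edgeR 4.0.16 in R 4.3.3 for TMM sizes and exact tests, Python 3.11.15 and scipy 1.17.1. DESeq2 1.42.0 gave alternative size factors. The quasi-likelihood test needs a second group and was not run. For log2 ratios 0.5 counts were added, and for ratios with intervals none. The tests were checked on simulated data.

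The members and lists were chosen with earlier results of these data known. Named genes are the members, the striated muscle list, the 5 genes of nearest log2 ratio, the 2 nearest in level on each side and up to 2 leading markers of each cell type. Further genes of the lists were named after their values were seen. Intron numbers come from the first-named protein-coding transcript of the GENCODE basic set that spans the hairpin. Alternatives changed scaling, strand, denominator, filter, dispersion and fold minimum.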

Additional observations from a re-analysis of the deposited data

How the results depend on the processing

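No paired analysis was possible because there is 1 group. The ratios of Mir499, Mir208b and Mir208a between the libraries kept their direction and their call under all 35 alternatives that gave a value. Their log2 ratios ranged from 2.33 to 3.07 for Mir499, 1.98 to 2.73 for Mir208b and 2.60 to 3.35 for Mir208a, and the highest adjusted p was 0.0466. With a minimum of 10 counts in each library Mir208a was not tested, since it had 4 counts in replicate 1. No weight is put on its calls under the other alternatives, and dropping the fold minimum could not remove a call from any member. The median log2 ratio of all genes, −0.05, was −0.47 with all listed reads as library size, −0.18 without the 10 most abundant genes and −0.74 with the other striated muscle genes, and the members' ratios shifted with it. The number of genes called was 42, and was 7 with the estimated dispersion, 27 with a coefficient of variation of 0.2, 163 without a fold minimum and 15 with a 4-fold minimum, which follows from how these rules are built. It was 67 and 96 with all listed reads and with the other striated muscle genes as library size. Leaving the 10 most abundant genes out of the denominator raised the mean levels of Mir499, Mir208b and Mir208a to 4170, 1312 and 35.3 CPM and their summed share to 0.552%, because the total is smaller. With all listed reads as denominator the levels were 231.7, 73.3 and 1.95 CPM and the share 0.0307%, because the total is larger. These count among the 19 of 23 alternatives for levels and shares within 1 SD, but the SDs exceed the means, and with n = 2 each library alone lies within 1 SD by construction. The main limits are the 4 counts of Mir208a in replicate 1 and the number of libraries, 2.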
